A study of Mus musculus with 59 samples.

Results

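Cytoplasmic mRNA decay begins with shortening of the poly(A) tail, and the genes of this machinery were followed in mouse SCNT embryos, where SCNT (somatic cell nuclear transfer) means that a somatic nucleus replaces the oocyte's own chromosomes. The set holds 39 genes, chosen by name for their roles in deadenylation, decapping and uridylation, and all 39 were found among the 24421 genes of the table. The groups used were TSA-treated late 2-cell embryos at 33 to 34 h after activation and untreated SCNT embryos of 3 stages, namely 1-cell at 13 to 14 h, early 2-cell at 20 to 21 h and late 2-cell at 33 to 34 h. TSA is trichostatin A, an inhibitor of histone deacetylases. The labels list 5 libraries for each of these 4 groups, give the strain as BDF1 and the molecule as poly(A) RNA, and name the cumulus cell, a somatic cell that surrounds the oocyte, as the donor in SCNT. Their growth protocol describes superovulated C57BL/6n females of 5 to 7 weeks as the source of oocytes, and the number of embryos per library is not given in the sources used here.

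The table holds 1 deposited value per gene and group, in FPKM (fragments scaled by transcript length and by all mapped fragments) on a log2(FPKM + 1) scale. No difference below therefore has an error, an n or a p-value, and the depth is unknown. Levels are given here in FPKM, and differences are on the log2(FPKM + 1) scale. A gene was counted as higher or lower at a difference of at least 1. That is 2-fold in FPKM + 1, the sense of 2-fold used below, and not always 2-fold in FPKM. A gene was kept for a comparison when it reached 1 FPKM in any of the 3 untreated columns, or, for the treatment, in either late 2-cell column. In whole embryos the level per cell and the number of cells cannot be told apart, and in poly(A) RNA the amount of a transcript and the length of its tail cannot be told apart. Of 15 oocyte and egg markers, 15 reached 1 FPKM in every column, with sums of 1177 FPKM with TSA and of 4808, 3547 and 1735 FPKM in untreated 1-cell, early 2-cell and late 2-cell embryos. Markers of the 2-cell stage at 1 FPKM or more numbered 17 of 19 with TSA and 7, 7 and 16 at the 3 untreated stages. Cumulus and granulosa markers reached 1 FPKM for 6 to 8 of 21 genes and summed to between 38.9 and 95.8 FPKM. Lum and Col3a1 were listed at 0 in all 4 columns. Nr5a2 was the highest of them in every column, at 69.0 FPKM with TSA and 19.5, 13.8 and 52.7 FPKM at the 3 untreated stages. From early to late 2-cell embryos, 5 of the 9 kept were counted as higher and 1 as lower, beside 47.1% and 10.8% of all genes. Among the 5, Amhr2 and Fshr passed the filter only through the late 2-cell value, where they are high. Amhr2 was at 0.020 FPKM in early and 3.01 in late 2-cell embryos, and Fshr at 0.29 in early and 1.64 in late.

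The poly(A) tail protects an mRNA and helps its translation. The CCR4-NOT complex removes most of it, with a pair of nuclease types, CNOT7 or CNOT8 and CNOT6 or CNOT6L, on the scaffold CNOT1, and adaptors of the BTG and TOB family and RNA-binding proteins bring it to its targets. Terminal uridylyl transferases then mark short tails with U, and the decapping enzyme DCP2 removes the cap so that XRN1 can degrade the body. Fully grown oocytes make little new RNA and live on stored transcripts. In mouse, Btg4 and Cnot6l are known as maternal factors that clear these stores, and the main wave of new transcription comes at the late 2-cell stage.

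Promoter sequence is shown for 3 adaptors of the BTG and TOB family, chosen by their levels. Btg4 stood highest of the members in 1-cell and early 2-cell embryos. Btg1 and Tob1 were the only members counted as higher, on the log2(FPKM + 1) scale, in early 2-cell than in 1-cell embryos. Each run gives the 250 bases before the annotated start, 5′ to 3′, from RefSeq on GRCm38.p6, with CpG dinucleotides and the letters TATAAA in capitals. The windows lie on the plus strand at chr9:51115751-51116000 for Btg4, chr10:96616751-96617000 for Btg1 and chr11:94211204-94211453 for Tob1, and the windows of Btg4 and Tob1 fall inside the RefSeq spans of these genes.
Btg4: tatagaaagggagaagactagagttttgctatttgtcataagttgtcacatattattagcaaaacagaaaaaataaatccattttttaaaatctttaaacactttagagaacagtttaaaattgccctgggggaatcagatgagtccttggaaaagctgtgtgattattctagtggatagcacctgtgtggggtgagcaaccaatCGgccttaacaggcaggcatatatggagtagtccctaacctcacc
Btg1: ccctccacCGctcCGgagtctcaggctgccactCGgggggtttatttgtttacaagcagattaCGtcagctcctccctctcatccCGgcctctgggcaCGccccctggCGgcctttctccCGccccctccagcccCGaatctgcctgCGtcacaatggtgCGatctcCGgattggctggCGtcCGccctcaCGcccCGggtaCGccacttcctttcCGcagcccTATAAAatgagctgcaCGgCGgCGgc
Tob1: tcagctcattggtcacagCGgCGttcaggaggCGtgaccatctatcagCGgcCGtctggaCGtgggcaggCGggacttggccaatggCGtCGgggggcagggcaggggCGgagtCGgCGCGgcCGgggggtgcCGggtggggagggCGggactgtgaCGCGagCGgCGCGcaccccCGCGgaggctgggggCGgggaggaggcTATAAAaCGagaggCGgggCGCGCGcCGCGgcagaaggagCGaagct
The Btg4 window holds 1 CpG, against 21 in the Btg1 window and 32 in the Tob1 window. The Btg2 window holds 27 and the Tob2 window 16, and the 2 windows of Btg3 hold 29 and 7. RefSeq windows were found for 32 of the 39 members, 43 windows in all, with a median of 22 CpG, against a median of 10 over 21262 windows of protein-coding genes. Every window was counted, also where a gene has several. Some windows of Cnot6l, Cnot8, Zcchc6 and Pum2 overlap and share bases. The protein-coding windows likewise come from fewer genes, 17491. At most 1 CpG was found in 15.1% of the protein-coding windows and, among members, in the Btg4 window alone, which is 2.33% of member windows. TATAAA, searched on both strands, stood in the windows of Btg1, Tob1, Zfp36l1 and Pabpc4, which is 9.30% of member windows and 11.6% of protein-coding ones. GGGCGG, the GC box, was in 69.8% of member windows and 42.6% of protein-coding windows, and CCAAT was in 37.2% and 35.4%. The letters TGACGTCA stood in 1 member window, that of Btg2, and in 1.92% of protein-coding windows. No window was matched for Cnot1, Cnot7, Dcp2, Ddx6, Lsm1, Zfp36l2 and Pabpc1.

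Summed over the 39 members, levels were 1837 FPKM with TSA and 3221, 3485 and 1917 FPKM in untreated 1-cell, early 2-cell and late 2-cell embryos. These sums are 0.36% of all FPKM with TSA and 0.64%, 0.67% and 0.37% at the 3 untreated stages. Most of the early total lay in a few genes: Btg4 and Cnot7 ranked 39th and 119th among all genes in 1-cell embryos. By stage, 14 members were highest in 1-cell, 5 in early 2-cell and 20 in late 2-cell embryos. Of the 37 members that reached 1 FPKM at any untreated stage these were 12, 5 and 20, or 32.4%, 13.5% and 54.1%, beside 22.1%, 12.8% and 65.0% of the 13012 genes that did. Without regard to size, 10 of the 37 were higher at each of the 2 steps and 10 were lower at each, or 27.0% both, beside 32.6% and 16.2% of those genes.

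**Figure D1:**
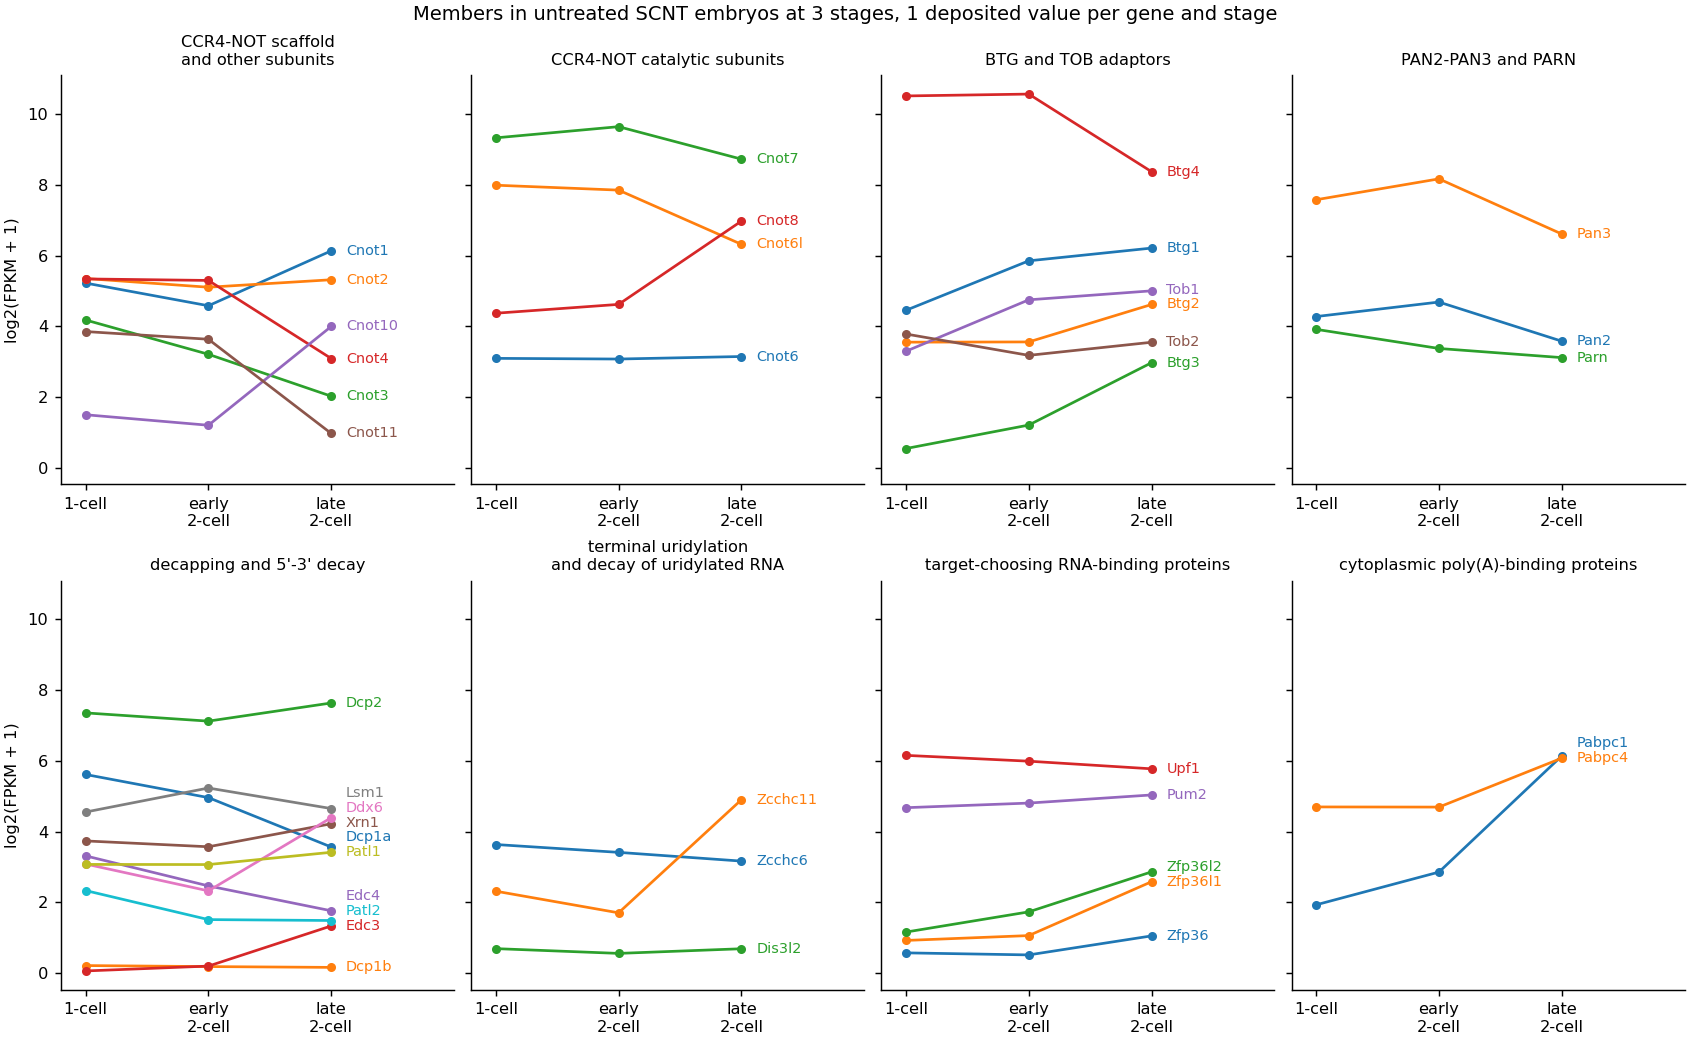
Level of each of the 39 members in untreated SCNT embryos, as log2(FPKM + 1), at the 1-cell, early 2-cell and late 2-cell stage, in 8 panels by role. Each point is the 1 deposited value of a gene and stage. Btg4, Cnot6l, Pan3 and Cnot11 drop at the last step, while Cnot8, Cnot10, Zcchc11 and Pabpc1 climb.

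The nucleases of CCR4-NOT were dominated by Cnot7 and Cnot6l at the first 2 stages. Cnot7 (chr8:40492538-40515847), which encodes a DEDD-type nuclease subunit, was at 642, 799 and 423 FPKM in 1-cell, early 2-cell and late 2-cell embryos, and its late minus early difference of -0.92 fell just short of 2-fold. Its paralog Cnot8 (chr11:58092794-58118597) was at 19.7, 23.6 and 125 FPKM, a late minus early difference of 2.35. Within the pair, Cnot7 held 97.0%, 97.1% and 77.2% of the summed FPKM at the 3 stages, a share that is the same when a whole column is multiplied by a factor. Cnot6l (chr5:96070333-96164198), one of the EEP-type nuclease subunits, was at 253, 229.98 and 78.9 FPKM, a late minus early difference of -1.53. Cnot6, its paralog, stayed between 7.45 and 7.88 FPKM over the 3 stages. Cnot6l therefore still held 90.9% of that pair in late 2-cell embryos, against 96.9% in early 2-cell embryos. Cnot7 overlaps Vps37a, listed at 27.4, 25.7 and 34.4 FPKM, and the strand used in counting is not given in the sources used here.

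The members listed as scaffold and other subunits of CCR4-NOT split in opposite directions between the 2-cell stages. Cnot1, the scaffold itself, was at 36.4, 23.0 and 69.3 FPKM, and Cnot10, whose protein joins CNOT11 on the N-terminal part of CNOT1, was at 1.84, 1.31 and 14.99 FPKM. Their late minus early differences were 1.55 and 2.79. Cnot11 moved the other way, at 13.5, 11.4 and 0.97 FPKM, a difference of -2.66. Cnot10 and Cnot11 encode partners in one module, and Cnot11 was the more abundant at the first 2 stages and Cnot10 in late 2-cell embryos. Cnot4, which encodes a RING-type ubiquitin ligase, was at 39.6, 38.4 and 7.53 FPKM, a difference of -2.21. Cnot3, of the NOT module, was at 17.2, 8.27 and 3.08 FPKM, with a difference of -0.97 at the first step and -1.18 at the second. Cnot2, its partner in that module, was at 39.9, 33.5 and 38.9 FPKM. Cnot3 overlaps Leng1, listed at 3.02, 5.85 and 42.0 FPKM, and any part of the overlap in the Cnot3 values was not tested.

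Among the BTG and TOB adaptors, Btg4 (chr9:51102147-51119924) was at 1460.1, 1514 and 330.3 FPKM in 1-cell, early 2-cell and late 2-cell embryos. BTG4 links CCR4-NOT to the translation machinery in mouse oocytes and eggs. Its late minus early difference was -2.19, and it overlaps Hoatz, Mir34b and Mir34c. Btg1 (chr10:96617001-96622813), first known as an antiproliferative gene, was at 20.9, 56.8 and 73.2 FPKM, and Tob1 (chr11:94209842-94215495) was at 8.84, 25.9 and 31.1 FPKM. Both were already above 2-fold at the first step, with early 2-cell minus 1-cell differences of 1.40 and 1.45, and their late minus early differences were 0.36 and 0.25. Btg2, an immediate-early gene in many cells, was at 10.8, 10.8 and 23.6 FPKM, and Btg3 was at 0.46, 1.32 and 6.86 FPKM, with late minus early differences of 1.06 and 1.76. Tob2 lay between 8.08 and 12.8 FPKM. Btg4 held 96.4% of the summed family FPKM in 1-cell, 93.6% in early 2-cell and 69.4% in late 2-cell embryos, while the share of Btg1 was 1.38%, 3.51% and 15.4%.

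**Figure D2:**
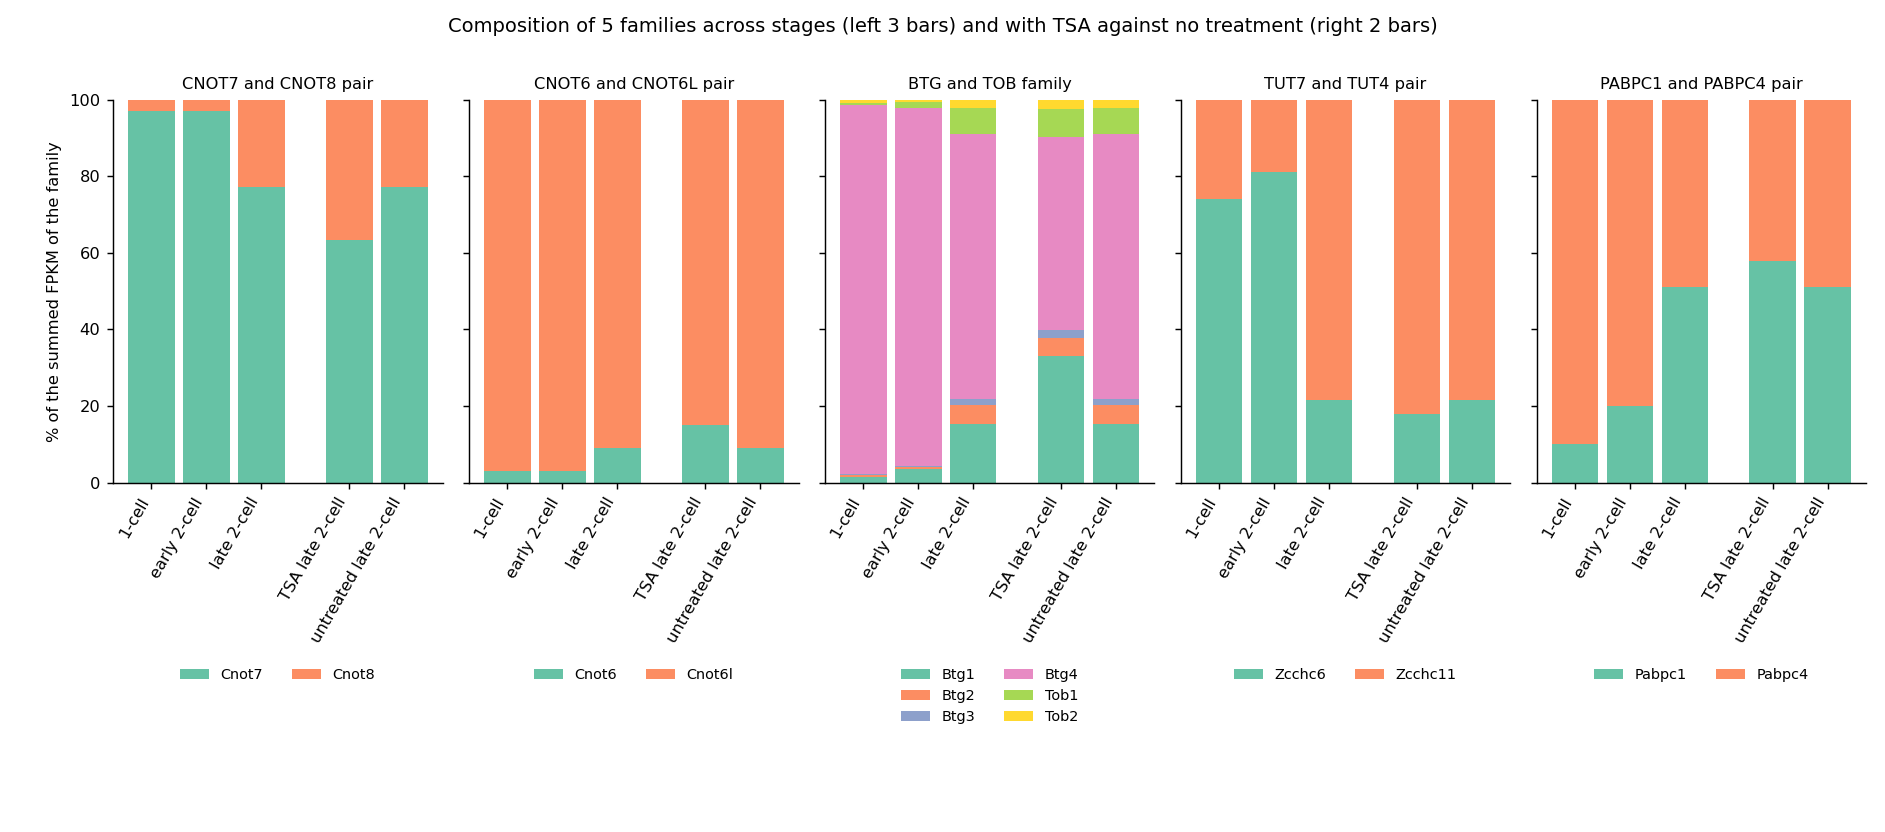
Share of each gene in the summed FPKM of its family, in %, for the CNOT7 and CNOT8, CNOT6 and CNOT6L, BTG and TOB, TUT7 and TUT4, and PABPC1 and PABPC4 genes. In each panel the left 3 bars are untreated 1-cell, early 2-cell and late 2-cell embryos, and the right 2 bars are TSA-treated and untreated late 2-cell embryos. Zcchc11 goes from the smaller part of its pair at the first 2 stages to 78.3% in late 2-cell embryos, and Btg4 holds 50.3% of its family with TSA and 69.4% without.

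The other deadenylases stood lower in late than in early 2-cell embryos. Pan3, which carries the PAN2 nuclease to poly(A)-binding protein, was at 190.3, 287 and 96.8 FPKM, and Pan2 was at 18.4, 24.8 and 11.0 FPKM. Their late minus early differences were -1.56 and -1.11. Parn, which encodes a deadenylase that also binds the cap, was at 14.1, 9.39 and 7.69 FPKM, a difference of -0.26. In every one of the 4 columns Pan3 was more abundant than Pan2.

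In decapping, the catalytic subunit and its activators did not share a pattern. Dcp2, the decapping enzyme, was at 162, 138 and 197 FPKM, with late minus early at 0.51, whereas Dcp1a, its activator, was at 47.9, 30.1 and 10.8 FPKM, a difference of -1.40. In mouse oocytes DCP1A and DCP2 are known to be made from stored mRNA during maturation. Dcp1b, the other DCP1 gene, lay under 0.2 FPKM at each stage, so Dcp1a held at least 98.9% of that pair. Ddx6, an RNA helicase of P-bodies that binds CNOT1, was at 7.47, 4.00 and 20.0 FPKM, a late minus early difference of 2.07. Edc3, an enhancer of decapping, was at 0.042, 0.15 and 1.52 FPKM and passed the filter only through the late 2-cell value, with a difference of 1.13. Edc4, a larger scaffold of the decapping complex, was at 8.93, 4.51 and 2.39 FPKM, a difference of -0.70. Xrn1, the exonuclease that follows decapping, lay between 10.9 and 17.6 FPKM. Lsm1, of the ring that binds deadenylated ends, was at 22.4, 36.5 and 24.1 FPKM.

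The PAT1 homologs, which connect that ring with decapping factors, were both low. Patl1 was at 7.40, 7.38 and 9.65 FPKM. Patl2, known in mouse for its part in oocyte maturation, was at 4.03, 1.85 and 1.80 FPKM. Patl2 overlaps B2m, listed at 10.3, 14.3 and 207 FPKM, and any part of the overlap in the Patl2 values was not tested.

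The uridylyl transferases exchanged places. Zcchc11 (chr4:108459410-108559415), also called Tut4, was at 3.97, 2.25 and 28.8 FPKM, with a late minus early difference of 3.20. That was second to Pabpc1 at the pseudocount of 1 and above it at 0.1, where the values were 3.62 for Zcchc11 and 3.45 for Pabpc1. Zcchc6, also called Tut7, was at 11.4, 9.64 and 7.96 FPKM. Zcchc11 thus held 25.8%, 19.0% and 78.3% of the pair in 1-cell, early 2-cell and late 2-cell embryos. Both enzymes add U to short poly(A) tails, and both are known to act on maternal transcripts in mouse oocytes. Dis3l2, the exonuclease that degrades uridylated RNA, was at 0.61, 0.47 and 0.61 FPKM and, like Dcp1b, was not kept in any comparison.

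Of the RNA-binding proteins that choose targets, the TTP family was low and highest in late 2-cell embryos. TTP proteins bind AU-rich elements and recruit CCR4-NOT. Zfp36l2, needed in mouse for development past the 2-cell stage, was at 1.23, 2.32 and 6.26 FPKM, Zfp36l1 was at 0.89, 1.08 and 4.99 FPKM, and Zfp36 was at 0.49, 0.43 and 1.07 FPKM. The late minus early differences of Zfp36l2 and Zfp36l1 were 1.13 and 1.52, and Zfp36 passed the filter only through the late 2-cell value, with 0.54. Upf1, the helicase of nonsense-mediated decay, was at 70.1, 62.4 and 53.6 FPKM, and Pum2, which binds Pumilio elements, was at 24.5, 26.9 and 31.7 FPKM.

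The cytoplasmic poly(A)-binding proteins, which coat the tail that deadenylases shorten, gave the highest late minus early difference of the members at the pseudocount of 1. Pabpc1 (chr15:36595658-36609581) was at 2.81, 6.23 and 69.3 FPKM, a late minus early difference of 3.28. Pabpc4 was at 24.9, 24.8 and 66.3 FPKM, a difference of 1.38. Pabpc1 held 10.1%, 20.1% and 51.1% of the pair at the 3 stages. Pabpc1l, the form known from oocytes and no member of the set, was at 12.4, 10.5 and 1.74 FPKM, which is 31.0%, 25.2% and 1.27% of the 3 genes together.

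Early 2-cell embryos were first compared with 1-cell embryos, which asks what differs around the first cleavage. At least 2-fold higher were 2 of the 37 members kept, Tob1 and Btg1, against a background of 2.89% of 13012 genes, and 0 were at least 2-fold lower, against 5.53%. Next in size were Pabpc1 at 0.93 on the higher side and Cnot3 at -0.97, Edc4 at -0.85 and Patl2 at -0.82 on the lower side. Some members not counted passed 2-fold as plain ratios of FPKM, early 2-cell over 1-cell. These were Edc3 at 3.46, Btg3 at 2.84 and Pabpc1 at 2.22, and on the lower side Cnot3 at 0.48 and Patl2 at 0.46. The Edc3 ratio is of 0.15 FPKM in early 2-cell over 0.042 in 1-cell embryos, and Edc3 was kept only through its late 2-cell value. The Btg3 ratio is of 1.32 over 0.46 FPKM. All 6 members listed as scaffold and other subunits of CCR4-NOT lay below 0, at a median of -0.27, and none of them reached 2-fold. These 6 are not the whole complex. Of 6 BTG and TOB adaptors, 5 lay above 0, at a median of 0.36. Over all 13012 genes, 53.1% lay below 0 and 45.4% above. Within the first of these groups, Cnot4 changed sign under at least 1 scaling of the columns. Among the adaptors, Btg2 at 0.0062 and Btg4 at 0.053 lay barely above 0, and Btg4 was at 0 after quantile normalization. The median of the kept members was -0.04, beside -0.03 over all genes. Over all genes, 34.3% of those counted were higher, against 41.5% after median-ratio scaling and 46.8% after quantile normalization.

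Late 2-cell embryos were then compared with early 2-cell embryos, a step that spans the main wave of new transcription in the mouse. At least 2-fold higher were 12 of 37 members, against a background of 47.1% of 13012 genes, and 8 were at least 2-fold lower, against 10.8%. The 12 were Pabpc1, Zcchc11, Cnot10, Cnot8, Ddx6, Btg3, Cnot1, Zfp36l1, Pabpc4, Edc3, Zfp36l2 and Btg2. The 8 were Cnot11, Cnot4, Btg4, Pan3, Cnot6l, Dcp1a, Cnot3 and Pan2. The median of the members was 0.25, beside 0.89 over all genes.

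Because the whole table moved at this step, values relative to the median of all genes are given too. Relative to it, 5 members were counted as higher and 14 as lower, where 24.7% and 26.6% of all genes were, and the median of the members was -0.63. The 5 were Pabpc1, Zcchc11, Cnot10, Cnot8 and Ddx6, and Cnot7, Parn, Edc4, Lsm1, Zcchc6 and Upf1 joined the 8 lower ones. Higher genes made up 81.4% of those counted over the whole table as deposited, with 6128 higher and 1399 lower. Median-ratio scaling left 55.7%, from 3785 higher and 3011 lower genes, and moved the median of all genes to 0.07. Quantile normalization left 49.0%, from 3343 and 3486 genes, and moved that median to -0.16. Pabpc1, Zcchc11, Cnot10, Cnot8 and Ddx6 were at least 2-fold higher, and Cnot11, Cnot4, Btg4, Pan3, Cnot6l and Dcp1a at least 2-fold lower, under each of the 8 settings tried. Settings that alter only the filter decide which genes are kept and cannot move a difference. For 11 members the sign was the opposite under at least 1 of the scalings or with the median of all genes subtracted, namely Btg1, Cnot2, Cnot6, Dcp2, Patl1, Pum2, Tob1, Tob2, Xrn1, Zfp36 and Zfp36l2. For Zfp36 this was the subtraction alone, since it fell under the filter after either scaling. As plain ratios of deposited FPKM, late over early, the 5 higher ones were 11.1 for Pabpc1, 12.8 for Zcchc11, 11.5 for Cnot10, 5.28 for Cnot8 and 4.99 for Ddx6.

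**Figure D3:**
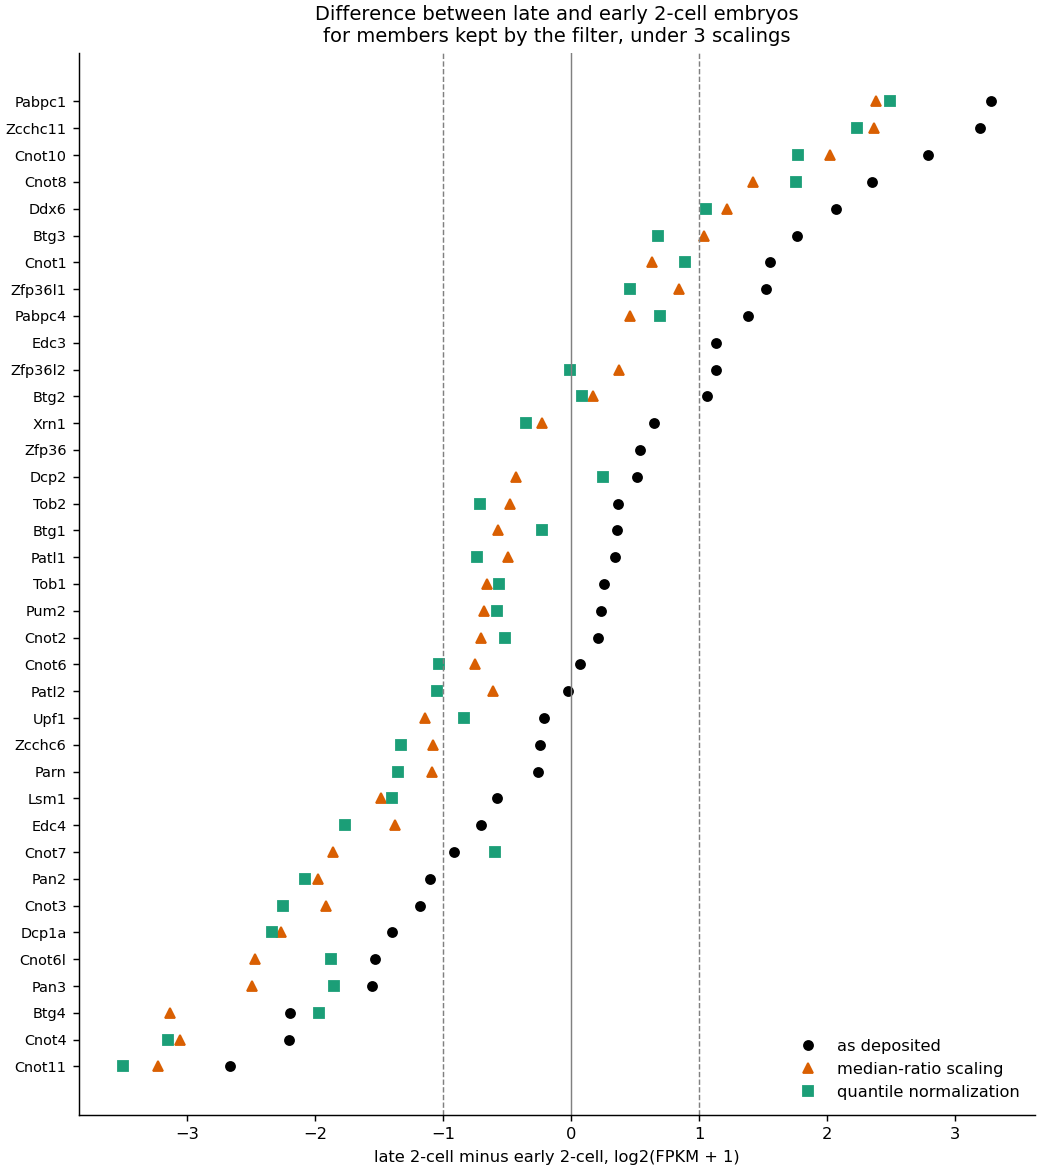
Late 2-cell minus early 2-cell difference of each kept member, in log2(FPKM + 1), as deposited (circles), after median-ratio scaling (triangles) and after quantile normalization (squares). Dashed lines mark 2-fold. Cnot11 to Dcp1a lie left of the lower line in every setting drawn and Ddx6 to Pabpc1 right of the upper one, and genes that fell under 1 FPKM after a scaling have no point for it.

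TSA-treated late 2-cell embryos were compared with untreated ones of the same stage, which asks how inhibition of histone deacetylases alters levels in SCNT embryos. This comparison shares the untreated late 2-cell column with the one before. At least 2-fold higher was 1 of 37 members, Btg1, against a background of 2.51% of 12756 genes, and 0 members were at least 2-fold lower, against 4.08%. Btg1 stood at 175 FPKM in treated and 73.2 FPKM in untreated embryos. Its difference of 1.24 ranged between 1.20 and 1.34 over the 8 settings tried, of which those that alter only the filter cannot move it. The median of the members was -0.00083, beside -0.08 over all genes, with 18 members above 0. Higher genes made up 38.1% of those counted over all genes, with 320 higher and 520 lower. That share was 50.1% with median-ratio scaling, from 399 and 397 genes, and 51.3% with quantile normalization, from 399 and 379.

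Below 2-fold, the higher side was led by Cnot10, at 24.7 FPKM with TSA and 14.99 without, and Pabpc1, at 110.2 with TSA and 69.3 without. Next came Btg3, at 11.3 FPKM with TSA and 6.86 without, and Cnot8, at 185 with TSA and 125 without. These 4 differences ran from 0.57 to 0.69. The lower side was led by Dcp2, at 108 FPKM with TSA and 197 without, and Pan2, at 6.28 with TSA and 11.0 without. Cnot6l followed at 48.7 FPKM with TSA and 78.9 without, and these 3 differences were -0.87, -0.72 and -0.69. Edc3 was at 0.72 FPKM with TSA and 1.52 without, and Lsm1 was at 17.2 with TSA and 24.1 without. The Edc3 difference lay between -0.98 and -0.19 over the settings that kept it. Edc3 and Zfp36 passed the filter only through their untreated values, and Cnot11 only through its value with TSA. Differences of the remaining kept members, apart from Btg1, lay between -0.39 for Cnot7 and 0.32 for Tob1.

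Shares within families, for genes that except for Btg1 stayed under 2-fold, were also set side by side. Cnot7 held 63.4% of the Cnot7 and Cnot8 pair with TSA and 77.2% without, and Cnot6l held 84.9% of its pair with TSA and 90.9% without. Btg4 was at 266 FPKM with TSA and 330.3 without, and its share of the BTG and TOB family was 50.3% with TSA and 69.4% without. The share of Btg1 was 33.0% with TSA and 15.4% without. Shares in a family are parts of one sum, so those of the 2 genes are not independent. The Btg4 difference itself was -0.31. Pabpc1 held 57.8% of the pair with Pabpc4 with TSA and 51.1% without, and Zcchc11 held 82.2% of its pair with TSA and 78.3% without. Dcp1a held 98.7% of its pair with TSA and 98.9% without, Patl1 held 88.7% with TSA and 84.3% without, and Zfp36l2 held 51.6% of the TTP family with TSA and 50.8% without. Upf1, the helicase named above, was at 65.8 FPKM with TSA and 53.6 without, and Pabpc4 was at 80.5 with TSA and 66.3 without. The summed oocyte markers were lower with TSA, at 1177 FPKM against 1735 without, and the summed 2-cell markers were higher, at 780 against 491. Usp17lb was the largest part of the latter sum with TSA, at 276 FPKM against 110 without. Of 17 kept markers of the 2-cell stage, 13 lay above 0, beside 43.3% of all genes. Among the 13, Usp17la passed the filter only through its value with TSA, at 1.44 FPKM against 0.55 without, so its sign was set by the filter. The 4 below 0 were Zscan4c, Zscan4d, Zscan4f and Tcstv1. The part of these marker levels in the differences above was not tested.

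**Figure D4:**
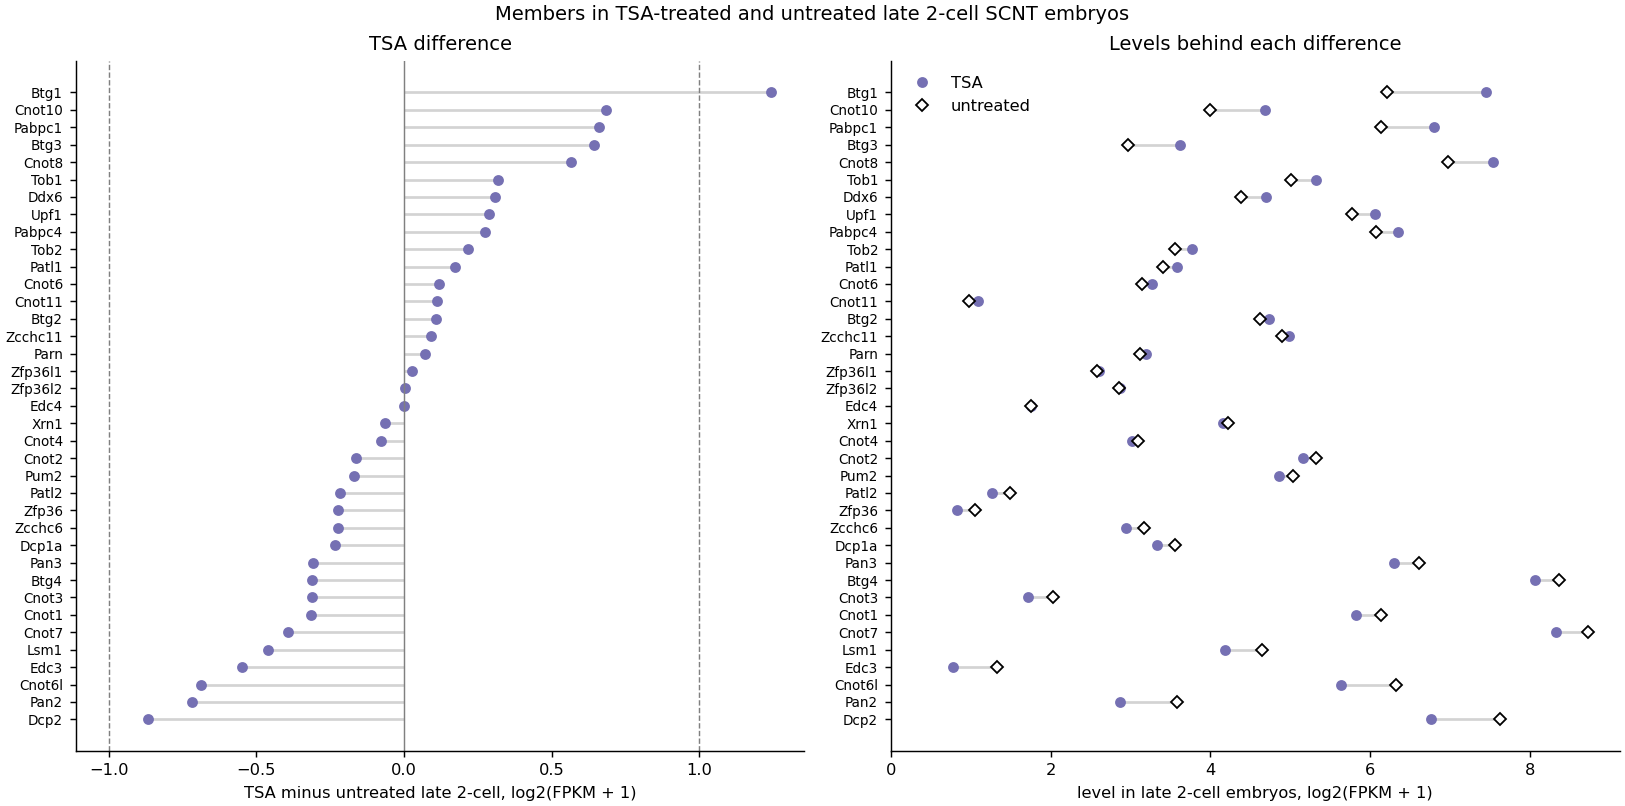
Left, TSA-treated minus untreated late 2-cell difference of each kept member in log2(FPKM + 1), with dashed lines at 2-fold. Right, the levels behind each difference, with TSA (filled circles) and without (open diamonds). Btg1 is the gene beyond a dashed line, and Dcp2 lies lowest at -0.87.

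Further genes of mRNA decay were set beside the members in 8 lists, whose counts between the 2-cell stages stand against 47.1% of all genes higher and 10.8% lower and an all-gene median of 0.89. In the list of the RNA exosome and Ski complex, which degrade RNA from the 3′ end, 10 of 18 genes were at least 2-fold higher in late than in early 2-cell embryos. In this list 1 gene was lower, and the median was 1.39. The list also holds Pelo and Hbs1l, ribosome rescue factors that belong to neither complex. Exosc5 was at 52.8 FPKM in late and 0.88 in early 2-cell embryos, and Exosc6 at 40.6 in late and 1.15 in early. Pelo, the 1 lower gene, was at 0.62 in late and 5.70 in early. Of 16 genes of nonsense-mediated decay, 10 were higher and 2 lower, with a median of 1.39. Ncbp1, of the nuclear cap-binding complex, was at 57.2 FPKM in late and 4.04 in early 2-cell embryos, and Smg5 was at 7.15 in late and 0.31 in early. Smg5 passed the filter only through its late 2-cell value, as did Skiv2l, Smg9 and Casc3 among the genes counted as higher in these lists. In the lists that follow, the same holds for Nanos3, Ago1, Xpo5, Papolb, Larp1, Cpeb2, Igf2bp1 and Zc3h12a. The counts of higher genes include them. Magoh and Magohb, near-identical paralogs of the exon junction complex, were lower, at 46.1 and 3.84 FPKM in late and 266 and 32.2 in early, and reads that fit both copies may be split between them.

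Other decapping and P-body factors gave 3 higher and 3 lower of 14 at this step. Lsm4 was at 24.4 FPKM in late and 1.37 in early 2-cell embryos, and Dxo, a decapping exonuclease for faulty caps, at 9.89 in late and 2.83 in early. Lsm7 was at 102 in late and 288 in early, and Lsm14a at 269 in late and 669.5 in early. Of 10 other deadenylases and CCR4-NOT partners, 1 was higher, Nanos3, and 2 were lower, Ccrn4l and Nanos2. Ccrn4l, also called nocturnin, was at 8.99 FPKM in late and 27.4 in early 2-cell embryos. MicroRNA silencing genes gave 5 higher and 1 lower of 12. Ago1, an Argonaute, was at 5.14 FPKM in late and 0.66 in early, and Tarbp2, a partner of Dicer, at 40.3 in late and 13.9 in early, while Dicer1 was at 36.4 in late and 109.5 in early.

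Of 14 genes listed as poly(A) polymerases and terminal nucleotidyltransferases, 2 were higher and 0 lower in late 2-cell embryos. That list also holds the RNA-binding proteins Lin28a and Lin28b. Papola, the canonical polymerase that lengthens tails, was at 101 FPKM in late and 16.4 in early. Other poly(A)-binding proteins and partners gave 4 higher and 4 lower of 12. Pabpn1, the nuclear poly(A)-binding protein, was at 501 FPKM in late and 78.6 in early, and its oocyte relative Pabpn1l at 1.51 in late and 9.71 in early. Other RNA-binding regulators of mRNA half-life gave 9 higher and 5 lower of 34. Rc3h2, a Roquin, was at 19.3 FPKM in late and 2.01 in early. Zar1 was at 3.31 in late and 15.7 in early, and Dazl at 37.4 in late and 135 in early, both of them germ-cell regulators of stored mRNA.

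Summed over the 8 lists, 44 of 130 genes were higher and 18 lower at this step, which is 33.8% and 13.8%, beside 47.1% and 10.8% over all genes. In early 2-cell against 1-cell embryos the counts were 4 higher and 14 lower of 130 genes, which is 3.08% and 10.8%, beside 2.89% and 5.53% over all genes, with 7 lower ones among the RNA-binding regulators. Papolg, a poly(A) polymerase, had 3.05 FPKM at the early 2-cell stage against 16.4 at the 1-cell stage, Stau1 had 9.55 against 63.8, and Exosc9 had 3.05 against 9.71. Lsm2 had 194 FPKM at the early 2-cell stage against 73.0 at the 1-cell stage, and Lsm7 had 288 against 116. For Paip1, which binds PABPC1 and promotes translation, the levels were 163 FPKM after and 2377 FPKM before the first cleavage (early 2-cell and 1-cell embryos).

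With TSA, 2 of 129 genes of the 8 lists were at least 2-fold higher and 1 lower, which is 1.55% and 0.78%, beside 2.51% and 4.08% over all genes. Paip1 had 593 FPKM with TSA against 39.1 without. This difference of 3.89 was higher than that of any member. Paip1 stood at 2377, 163 and 39.1 FPKM at the 3 untreated stages, so its steps were large in both directions. Each rests on 1 deposited value per group, and whether they reflect the embryos was not tested. Fam46a had 2.60 FPKM with TSA against 0.74 without. Mex3d, an RNA-binding ubiquitin ligase, was at 0.31 FPKM with TSA and 1.94 without. Fam46a passed the filter only through its value with TSA, and Mex3d only through its value without.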

How the data were processed

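The authors deposited log2(FPKM + 1) values, per the file headers, with 1 column per group. The submitters' processing notes list mm10 as build and, with no roles, StringTie 1.3.4, deepTools 2.5.7, HISAT2 2.1.0, Cufflinks, SAMtools 1.7 and Bowtie2 2.3.4.3. How the 5 libraries of a group were combined, and the annotation, were not stated in the sources used here. The 1-cell column was matched from its 13 h name and the labelled collection time. The table has 2 other value columns that match no RNA library label and were not used. The 4 Dux-injected RNA libraries and the chromatin libraries were not analysed here. A gene's FPKM also reflects all others in its column, and adding 1 understates differences of genes near or under 1 FPKM. Low values may be failed estimates, since Gapdh was listed at 0.028 to 0.91 FPKM. Values were returned to FPKM, and differences were taken with a pseudocount of 1 and a filter of 1 FPKM, with Python 3.11.15 and pandas 2.3.3, and tested on simulated data. Alternatives were pseudocounts of 0.1 and 5, no filter, a filter of 5 FPKM, median-ratio scaling and quantile normalization, and subtraction of the median of all genes, chosen after seeing the data. Gene positions and promoters are from RefSeq on GRCm38.p6, where all 39 members matched, and 23 of them overlap another annotated gene. All members are given. Of the 8 other lists, at most the 2 highest and 2 lowest genes past 2-fold per comparison are given with levels. Members and lists were chosen with earlier results of these data known.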

Additional observations from a re-analysis of the deposited data

How the results depend on the processing

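No paired analysis was possible because each group has 1 deposited value and no result comes from a test. Between late and early 2-cell embryos, the count of members at least 2-fold higher was 12 as deposited, 7 with a pseudocount of 5 (6 lower), 6 after median-ratio scaling, 5 after quantile normalization and 5 with the median of all genes subtracted. The count lower was 8 as deposited and 14 in each of the last 3 settings, with member medians of -0.66, -0.59 and -0.63 in place of 0.25. Zfp36l2 changed sign after quantile normalization, at -0.0091 in place of 1.13. Edc3 and Zfp36 fell under the filter after either scaling. Between early 2-cell and 1-cell embryos, a pseudocount of 0.1 gave 4 higher and 2 lower members in place of 2 and 0, with Btg3 and Pabpc1 added above and Cnot3 and Patl2 below, and median-ratio scaling gave 3 higher, with Pabpc1 added at 1.01. With TSA, Btg1 was the 1 member counted in each of the 8 settings, while the median of the members was 0.07 after median-ratio scaling and 0.09 after quantile normalization in place of -0.00083, and the small differences of Cnot4, Edc4 and Xrn1 changed sign under at least 1 scaling. Depth is unknown and no group has a spread, so differences between libraries of a group could not be seen.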
